A study of Rattus norvegicus with 2 samples.

Results

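The 4 genes of the MEF2 family of transcription factors (Mef2a, Mef2b, Mef2c and Mef2d) were examined in a map of a histone mark from pressure-loaded rat heart. All peaks whose annotated gene name is one of these 4 were taken, whatever their class, which gave 27 of 28706 peaks. The peaks come from 1 chromatin immunoprecipitation sequencing (ChIP-seq) library of myocardium from male Wistar rats with abdominal aortic constriction (AAC). In this model a 0.7 mm wire is tied against a 1 cm stretch of the aorta above the renal arteries, so that the heart pumps against a raised load. The labels give an antibody by catalogue number only, and its target was taken from the series title as lactylated lysine 18 of histone H3 (H3K18la). The labels do not give the age or the number of the rats, or whether any was stimulated. The input of the same number was without values, and no other group was analysed, so nothing below compares conditions, and no value has a replicate error.

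MEF2 proteins are MADS-box transcription factors that bind an A/T-rich element in genes of the contractile apparatus and of energy metabolism. In muscle, class IIa histone deacetylases hold them in a repressed state, and calcium-dependent kinases, the phosphatase calcineurin and p38 kinases release or activate them. Mef2a and Mef2d are the forms best known in the adult heart, Mef2c is needed for heart development, and Mef2b is best known from B cells. H3K18la is a lactate-derived mark that has been mapped at active promoters and enhancers.

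The sequences at the start sites are shown because the family split by whether a strong peak lay beside or over the start. RefSeq promoter sequences of assembly GRCr8 (250 bases before to 50 bases after the gene's start) were found for 3 of the 4 genes, and Mef2c had no entry. They come from another build than the peaks, which are on rn6, so no peak edge can be placed on them. Capitals mark 2 searched motifs, on either strand: the MEF2 consensus, which is the element the family itself binds, and the GC box, GGGCGG. The windows are chr1:130392113-130392412 on the minus strand for Mef2a, chr2:175904082-175904381 on the plus strand for Mef2d and chr16:19302861-19303160 on the minus strand for Mef2b.
Mef2a: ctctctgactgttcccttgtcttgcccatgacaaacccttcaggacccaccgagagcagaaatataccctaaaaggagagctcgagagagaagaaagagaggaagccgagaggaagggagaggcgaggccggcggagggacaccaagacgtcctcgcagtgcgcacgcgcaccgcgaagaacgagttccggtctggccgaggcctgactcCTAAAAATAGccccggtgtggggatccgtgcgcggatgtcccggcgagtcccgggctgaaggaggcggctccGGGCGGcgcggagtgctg
Mef2d: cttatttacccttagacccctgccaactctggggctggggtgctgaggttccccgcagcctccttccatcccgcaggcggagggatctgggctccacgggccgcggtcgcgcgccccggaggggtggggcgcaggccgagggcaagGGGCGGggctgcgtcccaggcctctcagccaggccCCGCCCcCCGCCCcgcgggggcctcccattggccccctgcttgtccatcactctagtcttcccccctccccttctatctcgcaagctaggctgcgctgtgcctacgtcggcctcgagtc
Mef2b: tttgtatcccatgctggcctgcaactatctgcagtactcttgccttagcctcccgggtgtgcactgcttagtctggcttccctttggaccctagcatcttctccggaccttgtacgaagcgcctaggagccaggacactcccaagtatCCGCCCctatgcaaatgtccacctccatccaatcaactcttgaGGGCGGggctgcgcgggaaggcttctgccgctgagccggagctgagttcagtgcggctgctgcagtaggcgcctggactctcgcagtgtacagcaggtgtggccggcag
The Mef2a window held 1 match to the MEF2 consensus, CTAAAAATAG, which began 40 bases before the start. Mef2b and Mef2d had none. Of 21851 promoters of protein-coding genes of the same length, 2.88% held such a match. The GC box occurred 3 times in Mef2d, 2 times in Mef2b and 1 time in Mef2a, and 41.8% of promoters held at least 1. All 3 windows lay above the median GC content of promoters (55.0%), with 71.3% in Mef2d, 63.0% in Mef2a and 59.7% in Mef2b. They held 23, 28 and 14 CpG dinucleotides in the same order, against a median of 11. Of all promoters, 8.67% had at least the GC content of Mef2d, 26.3% that of Mef2a and 35.7% that of Mef2b. For CpG counts the shares were 26.1%, 16.8% and 44.6%. Mef2b, the gene without any peak, was thus nearest to the typical promoter. Whether base composition relates to the peaks was not tested.

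Of the 4 genes, 3 carried peaks, and the 3 showed different layouts. Mef2c had 18 peaks, all of them inside the gene and far from its start. Mef2d had 8 peaks, among them a very wide one over its start, and Mef2a had a single strong peak just before its start. No peak carried the name Mef2b. Any peak at 3 of 4 genes (75.0%, 95% exact binomial interval 19.4 to 99.4%) stood against 27.1% of 23154 protein-coding genes. With 4 genes the interval includes that background, so the count alone sets the family apart from nothing. No member had a peak of the class promoter-TSS, which the annotation gives by the position of the peak's centre. That class occurred at 9.87% of protein-coding genes, a share that 0 of 4 (interval 0 to 60.2%) cannot be told from. Within 3000 bp of the start 2 of 4 genes had a peak centre (background 18.8%) and within 1000 bp none (17.1%), while 1 of 4 had a peak that covered the start (6.73%). All 3 genes with peaks kept one at a −log10 q of at least 5 (14.4%) and at a fold enrichment of at least 4 (19.7%). For promoter-class peaks at those thresholds the background was 4.23% and 5.37%.

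By class, 24 of the 27 peaks were intronic and 3 intergenic, and none was in an exon or at a termination site. Fold enrichment is the ratio of ChIP signal to the peak caller's local background, a value of the authors' that ranks peaks only within this list. Over the 27 peaks it ran from 2.79 to 7.34 with a median of 3.81, against a median of 4.13 over all peaks. Their widths ran from 200 to 6310 bp with a median of 436 bp, against 375 bp. The typical MEF2 peak was therefore no stronger than the typical peak of the list. Of the 27, 12 (44.4%) reached 4-fold, against 55.5% of all peaks, and 7 (25.9%) reached a −log10 q of 5, against 32.0%. The latter were 5 peaks at Mef2c, 1 at Mef2d and 1 at Mef2a.

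**Figure D1:**
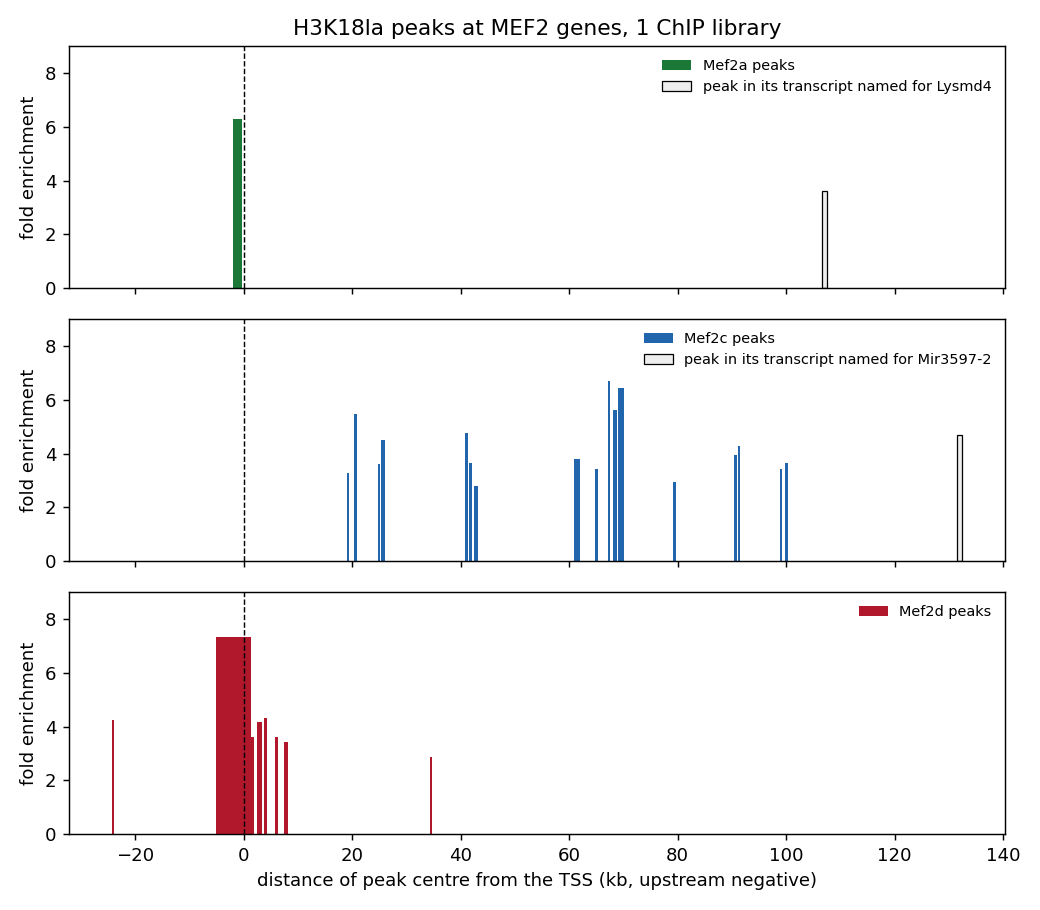
Peaks at Mef2a, Mef2c and Mef2d, with the distance of the peak centre from the transcription start site (TSS) in kb on the x axis and fold enrichment on the y axis. Each coloured bar is 1 peak drawn to its width, with narrower ones drawn 0.5 kb wide. Pale outlined bars are peaks inside the gene that carry another gene's name, drawn at a fixed width that is not to scale. Mef2c peaks lie between 19.2 and 100.1 kb downstream, whereas the strongest Mef2d peak lies across the TSS.

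Mef2d had the strongest and by far the widest peak of the family. It spanned 6310 bp (chromosome 2, 187507099 to 187513408), and 9 of the 28706 peaks were wider. Its fold enrichment was 7.34, a value that 1.55% of peaks reached, and its −log10 q was 21.2. The peak began 5065 bp before the Mef2d start site and ended 1244 bp past it, so it covered the start. Its summit, the point of highest signal, lay 1121 bp upstream. The annotation nevertheless called it intergenic, its centre being 1911 bp upstream. Peaks that cover a TSS made up 6.21% of the list (1782 peaks), and 715 of them (40.1%) were outside the promoter-TSS class. Only 6 of the 1782 were classed as intergenic, the Mef2d peak among them.

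The other 7 Mef2d peaks were of ordinary strength, from 2.88-fold to 4.33-fold, with −log10 q from 2.66 to 4.64. Of these, 5 lay in intron 1 and followed the wide peak closely, with centres 1.62, 2.86, 3.98, 6.01 and 7.75 kb past the start. They had 3.62-fold, 4.15-fold, 4.33-fold, 3.59-fold and 3.44-fold enrichment in that order. The gap between the wide peak and the nearest of them was 216 bp. Enrichment at Mef2d thus ran from upstream of the start well into intron 1, with breaks. The remaining peaks stood apart. One lay 24.2 kb upstream (4.23-fold), in the last of 37 introns of a neighbouring transcript that the annotation does not name, and the other 34.5 kb downstream, between genes (2.88-fold). Together the 8 peaks covered 9782 bp, of which the wide peak made up 64.5%. Of the 8094 gene names in the annotation, 2.57% had as much sequence under peaks, 4.36% had as strong a strongest peak and 10.6% had as many peaks.

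Mef2a had 1 peak under its own name. It lay between genes, was 1800 bp wide (chromosome 1, 128341548 to 128343347) and had 6.29-fold enrichment, which 4.67% of peaks reached, with a −log10 q of 13.3. The gene is on the minus strand, and the peak's near edge was 284 bp upstream of the start site with the summit 899 bp upstream. Like Mef2d, Mef2a thus had its strongest signal about 1 kb before the start, but its peak stopped short of it. By both fold enrichment and −log10 q it ranked well above all Mef2d peaks but the wide one.

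Names hid part of the signal at Mef2a. A peak named for Lysmd4 lay in intron 5 of 10 of a transcript that the annotation pairs with Mef2a, 107 kb past the Mef2a start (chromosome 1, 128234153 to 128234362). It was weak, with 3.60-fold enrichment and a −log10 q of 2.88. On the upstream side, 16 peaks named for LOC103691157 were spread from 53.1 to 119 kb before the Mef2a start (chromosome 1, 128394373 to 128460316) and covered 16.2% of that stretch. They ran from 3.18-fold to 7.58-fold with a median of 4.56, so the strongest of them exceeded the Mef2a peak. Whether any of this block acts on Mef2a cannot be read from a peak list.

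Mef2c had the most peaks and none at its start. Its 18 peaks spread over 81.4 kb of the gene body (chromosome 2, 11677520 to 11758929). Their centres lay from 19.2 to 100.1 kb downstream of the start site that the annotation uses. The gene has several transcripts, and all 18 distances refer to a single start site. Intron 2 held 13 of the peaks and intron 3 held 1, both numbered in the same transcript. The last 4 were annotated to intron 4 of another Mef2c transcript. Of the gene names in the annotation, 2.31% had at least 18 peaks and 45.0% had exactly 1. Fold enrichment ran from 2.79 to 6.68 with a median of 3.80, and −log10 q from 2.08 to 11.4 with a median of 3.59.

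Some of the Mef2c peaks stood close together. With peaks under 1000 bp apart joined, the 18 formed 10 groups, several of them a single peak. The strongest group lay in intron 2, where 3 peaks stood within 2945 bp (chromosome 2, 11725655 to 11728599), 67.3 to 69.5 kb past the start. These had 6.68-fold, 5.62-fold and 6.45-fold enrichment, with −log10 q of 11.4, 7.20 and 10.3, and gaps of 491 and 240 bp between them. They were 3 of the 4 strongest Mef2c peaks. The other was a narrow peak of 289 bp in the same intron, 20.6 kb past the start (chromosome 2, 11679056 to 11679344), with 5.45-fold enrichment. A group of 3 peaks at 41.1 to 42.8 kb reached 4.75-fold, and a pair at 24.9 and 25.6 kb reached 4.49-fold. Past intron 2 no peak named Mef2c exceeded 4.28-fold. Mef2c had more than 2 times as many peaks as Mef2d, yet they covered less sequence, 8207 bp against 9782 bp.

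Around Mef2c the list was nearly empty. The next peak on the upstream side was 739 kb away, a distance that 2.62% of gaps between neighbouring peaks reached, the median gap being 4.66 kb. On the other side a peak carried the name Mir3597-2 (chromosome 2, 11790489 to 11790719, 4.67-fold, 132 kb past the Mef2c start). It lay in intron 6 of 10 of the transcript to which the Mef2c peaks of introns 2 and 3 were annotated. Of the 15 intron peaks of that transcript, 14 carried the name Mef2c. After the Mir3597-2 peak none followed until 1937 kb past the last Mef2c peak, where one was named for Rasa1. Between those limits all peaks lay inside the gene.

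**Figure D2:**
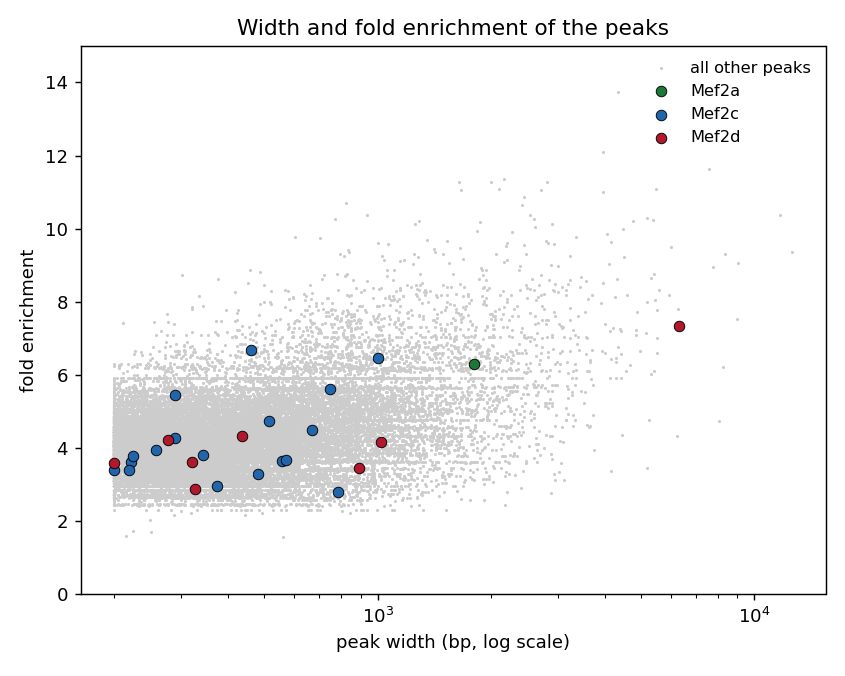
Width (bp, log scale) against fold enrichment for every peak of the library, with the 27 MEF2 peaks in colour. The Mef2d peak of 6310 bp lies at the far right, the Mef2a peak of 1800 bp lies between it and the rest, and most other MEF2 peaks lie inside the main cloud.

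Mef2b lay in a stretch without peaks. In the gene order of GRCr8 it is 1 of 14 neighbouring protein-coding genes with no peak under their names, from Sugp2 to Mau2, among them its neighbour Borcs8. The flanking genes with a peak were Homer3 (5.03-fold, chromosome 16, 20890617 to 20891116) and Gatad2a (4.98-fold, chromosome 16, 21168690 to 21169186). On rn6 the 277.6 kb between those peaks held none under any name, so, if the gene order is the same on both builds, no peak at Mef2b was hidden under another name. Such a stretch was not rare: 6.25% of gaps between neighbouring peaks were as long, and 34.8% of protein-coding genes without a peak lay in a run of at least 14. The sequencing depth is unknown, so an absent peak says only that none was called.

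Srf, the other MADS-box factor of muscle, served as a reference within the list. It had 2 peaks, of 4.79-fold 13.8 kb upstream (chromosome 9, 16723566 to 16724209) and of 4.19-fold 430 bp downstream of its start (chromosome 9, 16737874 to 16738270). Both were weaker than the strongest peak of Mef2a, Mef2c or Mef2d. By the number of peaks in each class, Cux1, Zbtb20 and AABR07005888.1 were most like Mef2c, each with 18 intron peaks and no other. Nfic and Egln1 had the same counts as Mef2d, 6 in introns and 2 between genes, and Ldhd differed by 1 peak. Their strongest peaks ran from 5.38-fold at Egln1 to 7.92-fold at AABR07005888.1. This likeness is over the peak classes of 1 library, since no other samples were at hand.

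**Figure D3:**
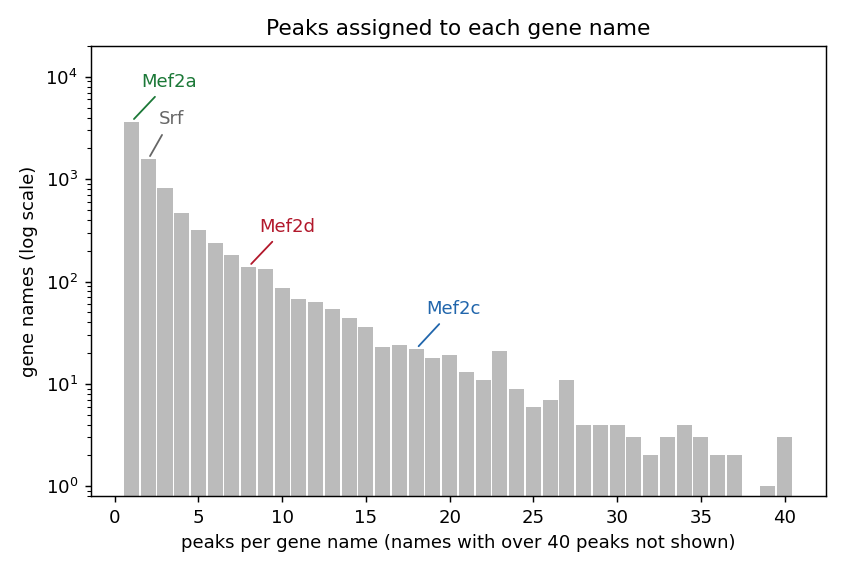
Number of gene names (y axis, log scale) by the number of peaks that carry the name (x axis), with lines to the values of Mef2a (1 peak), Srf (2), Mef2d (8) and Mef2c (18). Names with over 40 peaks are not shown, and Mef2b had no peak.

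Genes that act on MEF2 or with it, and its known targets, as a whole carried peaks more often than protein-coding genes in general. Over 4 lists of 66 genes in all, 43 had any peak (65.2%, interval 52.4 to 76.5%, background 27.1%) and 17 had one of promoter class (25.8%, 15.8 to 38.0%, background 9.87%). Many of these genes are active in heart and the background was not limited to such genes, so nothing particular to MEF2 can be read from the difference. The lists were also chosen with earlier results of these data known. Only 77.5% of the annotation's names matched the gene table. A protein-coding gene under an unmatched name counts in the background as without a peak, which lowers that share. Intervals cover counting error only.

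Among repressors of MEF2, 5 of 8 had a peak (62.5%, interval 24.5 to 91.5%), and 1 had one of promoter class (12.5%, 0.316 to 52.7%). Both intervals include the background. Hdac7, a class IIa deacetylase best known from endothelium, had the strongest at 7.46-fold, 531 bp past its start (chromosome 7, 139317423 to 139318425). Hdac9, another class IIa deacetylase, reached 4.93-fold 98.9 kb upstream. No peak carried the name of Hdac3, Hdac4 or Ncor1. Among the class IIa deacetylases and their corepressors, peaks were thus called at some genes and not at others.

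Of the kinases and phosphatases that act on MEF2 or its repressors, 12 of 19 had a peak (63.2%, 38.4 to 83.7%) and 3 a promoter one (15.8%, 3.38 to 39.6%). The promoter share could not be told from the background of 9.87%. Sik1, a kinase that phosphorylates class IIa deacetylases, had 10 peaks. The strongest, of 6.94-fold, lay between genes, 28.0 kb downstream of the Sik1 start (chromosome 20, 10651775 to 10652806). Mapk12, a p38 kinase, had a single peak of 5.93-fold in an exon 715 bp past the start (chromosome 7, 130119303 to 130120425). Csnk2a1, the catalytic subunit of casein kinase 2, had 5.92-fold 26.2 kb upstream. Camk2g, Camk4 and Cdk5 had no peak.

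Of the partners and coactivators, 11 of 18 had a peak (61.1%, 35.7 to 82.7%) and 5 a promoter one (27.8%, 9.69 to 53.5%), the latter interval again including the background. Nfatc3, a calcineurin-dependent factor, reached 6.76-fold 5.06 kb upstream of its start (chromosome 19, 38033877 to 38035133), where the annotation places a termination site. Tead1, which binds MCAT elements of muscle genes, reached 6.48-fold at its promoter (chromosome 1, 177494798 to 177496403). Gata4, a zinc finger factor of the heart that binds MEF2, had 12 peaks, the strongest 5.58-fold and 25.2 kb upstream. Nothing was called at Carm1, Crebbp or Ep300, which encode a methyltransferase and the acetyltransferases that MEF2 recruits.

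Of genes known as MEF2 targets in muscle or endothelium, 15 of 21 had a peak (71.4%, 47.8 to 88.7%) and 8 a promoter one (38.1%, 18.1 to 61.6%). Promoter peaks with a −log10 q of at least 5 were at 2 genes (9.52%, 1.17 to 30.4%). That interval includes the background of 4.23%. With a fold enrichment of at least 4 the promoter count was 4 (19.0%, 5.45 to 41.9%, background 5.37%). Klf2, a MEF2 target of endothelium, had 23 peaks and the strongest of all 4 lists, 9.77-fold and 24.6 kb upstream (chromosome 16, 19247995 to 19251356). Xirp1, a protein of the intercalated disc, had 8.33-fold 12.1 kb downstream of its start, between genes (chromosome 8, 128697627 to 128700549). Klf4, a relative of Klf2, had a peak of 6.96-fold 2806 bp upstream (chromosome 5, 72289988 to 72290963). Hrc, Mmp10 and Myh6 had none. The median over genes of each gene's strongest peak was 5.28-fold for targets, 5.35-fold for kinases and phosphatases, 5.14-fold for partners and 4.93-fold for repressors, against 4.64-fold over all names with a peak. For the 3 MEF2 genes with peaks it was 6.68-fold. A gene with more peaks has more chances of a high maximum, and these medians were not adjusted for that. Mef2c had 18 peaks and Mef2d 8, whereas 45.0% of names had exactly 1. Peak by peak, the MEF2 median of 3.81-fold was below the 4.13-fold of the list.

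**Figure D4:**
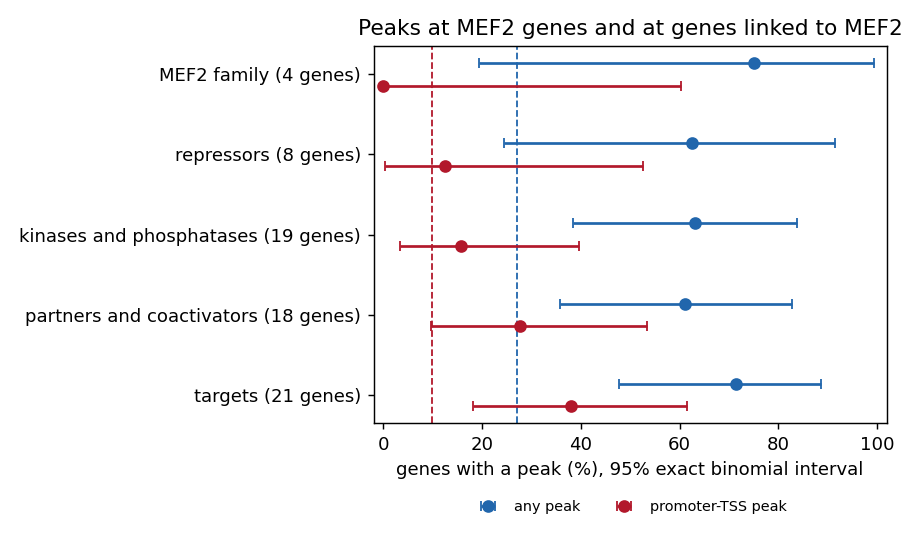
Share of genes with any peak (blue) and with a promoter-TSS peak (red) in the MEF2 family and in 4 lists of genes linked to it, with 95% exact binomial intervals. Dashed lines mark the same shares over all protein-coding genes, 27.1% and 9.87%, and the blue intervals of the MEF2 family and the repressors cross their line, as do all red intervals but that of the targets.

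The MEF2 consensus was also searched in the promoters of the targets, to show which carry the element near the start. A promoter sequence was found for 15 of the 21, and 5 held a match (33.3%, against 2.88% of all protein-coding promoters). These genes are known as targets partly through such elements, so the share is no independent result. Of the 5 matches, 4 are shown, in capitals with 10 bases on either side.
Xirp1: tccacaagccCTAAAAATAAccagaccact
Xirp2: agctcagctcCTAAAAATAGatgctaggtt
Srpk3: agctgggaggCTATTTATAAaggcgggtga
Mmp10: gtcattcagaTTAAAATTAGcacccacatg
The Xirp2 match has the same 10 letters as the one before the Mef2a start. Of all 5 genes with a match, 2 had a peak, Xirp1 among them, and Xirp2, Srpk3 and Mmp10 had none. Of the 10 targets with a promoter sequence and no match, 8 had a peak. A match in these letters is a description and not a binding site, and numbers this small relate it to peaks in neither direction.

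As a check of the tissue label, 5 of 8 cardiomyocyte markers and 5 of 6 endothelial markers had a peak, against 1 of 5 for each of fibroblast, immune, skeletal muscle and neuron markers and 1 of 4 for smooth muscle (background 27.1%). By promoter class the counts were 2 cardiomyocyte and 1 endothelial marker and none of the others. Lists of 4 to 8 markers check the label only loosely. Among cardiomyocyte markers Myh6, Ryr2 and Ttn had none. The MEF2 peaks come from whole myocardium, and which of its cell types gave each of them was not tested.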

How the data were processed

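The peak list and its annotation of 1 ChIP library were used as deposited. The submitters' processing notes name build rn6, HOMER, MACS2, Bowtie2, Trim Galore, FastQC, deepTools and SAMtools, with no roles. Versions, and whether the input served as background, are not given in the sources used here. The call was filed under q 0.05, per the file headers. Fold enrichment is the ratio that the authors deposited, and q is given as −log10 per the file headers. Each deposited score is 10-fold its −log10 q without decimals (28706 of 28706 peaks). Sequencing depth is unknown.

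Peaks were joined by name with pandas 2.3.3. A peak covers a TSS where the distance from its centre is no more than 50% of its width. The start positions of the MEF2 genes were computed from peak centres and deposited distances. Of 8094 names, 77.5% matched a table of GRCr8. The join and counts were tested on simulated data, with 2000 of 2000 genes recovered. Intervals are Clopper-Pearson (scipy 1.17.1). No test was possible with 1 library. Named genes were all members, Srf and, in each list, the 3 with the strongest peaks and the first 3 without one by alphabet. The genes most like a member, and flanking genes, also followed rules. A few results that these rules select are not reported here. Members and lists were chosen with earlier results of these data known.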

Additional observations from a re-analysis of the deposited data

How the results depend on the processing

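Peak counts depended on the threshold and on how neighbouring peaks are counted. At −log10 q of at least 5, Mef2c had 5 peaks and Mef2d 1, and at fold enrichment of at least 4 they had 7 and 4. Joined under 1000 bp, they had 10 and 5. Within 50 kb of the start, under any name, Mef2c had 7. With peaks in its transcripts under another name, a setting chosen after seeing the data, Mef2a had 2. Mef2a kept 1 peak and Mef2b 0 under each threshold. The strongest peak of each gene was the same by −log10 q. Members with a peak near the start rose from 0 by promoter class to 2 within 3000 bp and 1 by cover of the TSS (also added later), and stayed at 0 within 1000 bp. Repressors with a peak fell from 5 to 4 at −log10 q of at least 5, 1 by promoter class, 3 within 1000 bp and 0 by cover of the TSS. Kinases and phosphatases fell from 12 to 8 at −log10 q of at least 5, 3 by class, 8 within 1000 bp and 2 by cover. Partners fell from 11 to 6 at −log10 q of at least 5, 5 by class, 6 within 1000 bp and 3 by cover. Targets fell from 15 to 10 at −log10 q of at least 5, 8 by class, 11 within 1000 bp and 4 by cover. At fold enrichment of at least 4 the lists kept 5 repressors, 11 kinases and phosphatases, 8 partners and 12 targets. For the lists, each of these settings keeps only part of the peaks, and the share over all protein-coding genes fell too. From 27.1% that share went to 14.4% at −log10 q of at least 5 and 19.7% at fold enrichment of at least 4. It was 9.87% by class, 17.1% within 1000 bp and 6.73% by cover of the TSS. At −log10 q of at least 5, among the 4 lists only the interval of the partners (13.3 to 59.0%) included that share. By cover of the TSS the intervals of all 4 lists did. No paired analysis was possible because the input library with the same number had no values here.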

Other observations

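Besides the Mef2d peak, 5 peaks covered a TSS and yet were classed as intergenic, of which 4 are described here, named after their values were seen. Per1, a circadian clock repressor, had a peak of 5398 bp and 8.76-fold, with its centre 2541 bp before the start. That of Klf3, a zinc finger repressor, spanned 5261 bp at 4.75-fold. Mgst2, a membrane-bound glutathione transferase, had 4753 bp at 10.2-fold. The unnamed model AABR07004269.5 had 3345 bp at 6.30-fold. All 6 peaks were at least 3345 bp wide, and the Mef2d peak was the widest of them. A peak with its centre this far from a start can cover it only if it is wide, so large widths follow from the selection.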
